A study of Mus musculus with 25 samples.

Results

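CD11c+ interstitial macrophages (IM) from mouse lungs bearing a B16 tumor, a mouse melanoma line, were compared between cells labelled Il9r KO and cells labelled WT. The libraries were picked out by their labels: the 3 CD11c+ tumor libraries labelled KO (label numbers 14, 15 and 16, here KO1, KO2 and KO3) and the 2 labelled WT (label numbers 8 and 9, here WT1 and WT2), 5 of the 25 libraries of the series. The 1, 2 and 3 in these names are the replicate numbers of the sample titles. By the labels the KO cells came from Il9r -/- marrow and the WT cells from BoyJ marrow, although Il9r reads, given below, went against these labels. Both developed side by side in mixed bone marrow chimeras, in which B6/BoyJ hosts received marrow of both donors, and all 5 libraries are from lungs labelled as tumor. The age of the mice is not given in the sources used here. The other chimeras of the series paired WT with Arg1 conditional knockout (CKO) marrow, and their 2 CKO and 3 WT CD11c+ tumor libraries serve here as a second comparison. CD11c- tumor IM of the IL9R chimeras (3 KO and 2 WT libraries) and naive total lung macrophages (1 KO and 1 WT library) were also used. Bulk polyA RNA was sequenced, with reads counted per gene.

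The donors differed in strain origin as well as in Il9r. BoyJ is a C57BL/6 line that is congenic for an allele of Ptprc, the CD45 gene on chromosome 1, together with flanking DNA. The background of the Il9r -/- donors, the cell type or promoter in which Arg1 was deleted and the share of host cells left in the lung are not given in the sources used here. An effect of the Il9r genotype and an effect of donor strain cannot be told apart in this design. No label says whether each library is from another animal, so p-values here reflect the spread among the libraries alone, which may be technical.

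The IL-9 receptor is made of a ligand-binding chain, encoded by Il9r, and the common gamma chain, encoded by Il2rg. Binding of IL-9 activates the kinases JAK1 and JAK3 and then STAT proteins, among them STAT5 and STAT3, whose targets include the feedback inhibitors Cish and the Socs genes. Interstitial macrophages live in the lung connective tissue, apart from the alveolar macrophages of the air spaces, and are known for cytokine production and antigen presentation.

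Among 13434 genes tested, 1 rose (0.00744%) and 3 fell (0.0223%) in CD11c+ IM labelled Il9r KO (edgeR quasi-likelihood test, Benjamini-Hochberg adjusted p under 0.05, called below). Wdfy1, which encodes an endosomal adaptor of Toll-like receptor signaling, was higher in KO. Dynlt1b, a dynein light chain gene, Ctse, which encodes the aspartic protease cathepsin E, and Pydc3, an interferon-inducible gene of the PYHIN family, were lower. Without KO3, which carried more melanoma and T cell reads, 3 of 13360 genes passed (0.0225%), and all 3 of them, Wdfy1, Dynlt1b and Ctse, were among the 4 called with it. The unadjusted p was under 0.05 for 380 genes with KO3 (279 higher, 101 lower) and for 162 without it (104 higher, 58 lower). When the KO and WT groups were fitted alone, without the other tumor libraries, no gene was called by edgeR (307 with an unadjusted p under 0.05).

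Because Dynlt1b has near-identical copies beside it on chromosome 17, the start of its coding sequence is shown with that of Dynlt1a, 60 bases from the start codon, read 5′ to 3′ from GENCODE vM21 transcripts (GRCm38, the assembly named mm10). The capital marks the only base at which they differ, A21C relative to Dynlt1b, counted from 1 at the A of the start codon.
Dynlt1b: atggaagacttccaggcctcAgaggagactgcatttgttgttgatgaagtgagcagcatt
Dynlt1a: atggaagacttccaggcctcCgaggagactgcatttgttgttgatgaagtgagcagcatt
The coding sequences have 339 bases, and Dynlt1c and Dynlt1f carry the same A21C difference as Dynlt1a and no other. Of the 722 windows of 50 bases in the 771-base Dynlt1b transcript, 121 (16.8%) were absent from the transcripts of its copies. Reads from the rest of the transcript match several genes, so its counts are uncertain, and how such reads were counted is not given in the sources used here.

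Dynlt1b (chromosome 17, 6430112 to 6436296, + strand) had 10, 13 and 15 reads in KO1, KO2 and KO3, against 201 and 210 reads in WT1 and WT2. As CPM (counts scaled to library size with TMM factors), these were 0.244, 0.339 and 0.316 in KO and 4.52 and 5.86 in WT. The KO libraries lay close together and far below both WT libraries. The log2 fold change was -4.10 (SE 0.38, edgeR adjusted p = 1.68e-05), and -4.14 without KO3 (SE 0.46, adjusted p = 0.000403). The copies that were in the table did not share the difference. Dynlt1a had 7.34, 8.58 and 5.4 CPM in KO and 6.81 and 9.40 CPM in WT (log2 fold change -0.19, SE 0.32, adjusted p = 1), so the groups overlapped. Dynlt1f had 0.878, 0.339 and 0.738 CPM in KO and 0.697 and 0.530 CPM in WT, which also overlapped (log2 fold change 0.09, SE 1.03, adjusted p = 1). Of 27 other genes tested within 2 Mb of Dynlt1b, 3 had an unadjusted p under 0.05 (11.1%, against 2.83% of all genes), and none was called.

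Wdfy1 (chromosome 1, 79702262 to 79776143, - strand) had 80.3, 64.0 and 58.9 CPM in KO1, KO2 and KO3, against 10.3 and 7.78 CPM in WT1 and WT2. Every KO library exceeded both WT libraries by more than the range within either group. The group means were 67.7 ± 11.2 CPM in KO (SD, n = 3) and 9.06 ± 1.81 CPM in WT (SD, n = 2), a 7.47-fold difference. On the log2 scale the change was 2.90 (SE 0.33, edgeR adjusted p = 0.000279), and 2.99 without KO3 (SE 0.35, adjusted p = 0.000465). Between libraries of the same replicate number the difference in log2 CPM was 2.95 for KO1 minus WT1 and 3.03 for KO2 minus WT2.

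Ctse (chromosome 1, 131638306 to 131675505, + strand) had 5.44, 8.06 and 7.90 CPM in KO1, KO2 and KO3, against 48.9 and 51.8 CPM in WT1 and WT2. Cathepsin E acts in endosomes of antigen-presenting cells, and its transcript was 7.06-fold lower in KO than in WT by the ratio of the group estimates. The means were 7.13 ± 1.47 CPM in KO (SD, n = 3) and 50.4 ± 1.99 CPM in WT (SD, n = 2). Its log2 fold change was -2.82 (SE 0.38, edgeR adjusted p = 0.00222), and -2.90 without KO3 (SE 0.45, adjusted p = 0.0162).

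Pydc3 (chromosome 1, 173673628 to 173698393, an older name of Ifi208 in RefSeq for GRCm38.p6) had 2.49, 3.5 and 2.7 CPM in KO1, KO2 and KO3, against 16.5 and 7.56 CPM in WT1 and WT2. The KO libraries were alike, and the WT libraries differed from each other, with WT2 nearer to KO. The log2 fold change was -2.06 (SE 0.34, edgeR adjusted p = 0.03). This call rested on single libraries: it was lost without KO3 (-2.01, adjusted p = 0.205), without KO1 (-1.96, adjusted p = 0.134), without KO2 (-2.24, adjusted p = 0.0666) and without WT1 (-1.39, adjusted p = 1). It was also lost with the replicate number as a block (-1.92, adjusted p = 0.749). PYHIN genes share sequence, so reads of Pydc3 could have been split among its relatives.

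**Figure D1:**
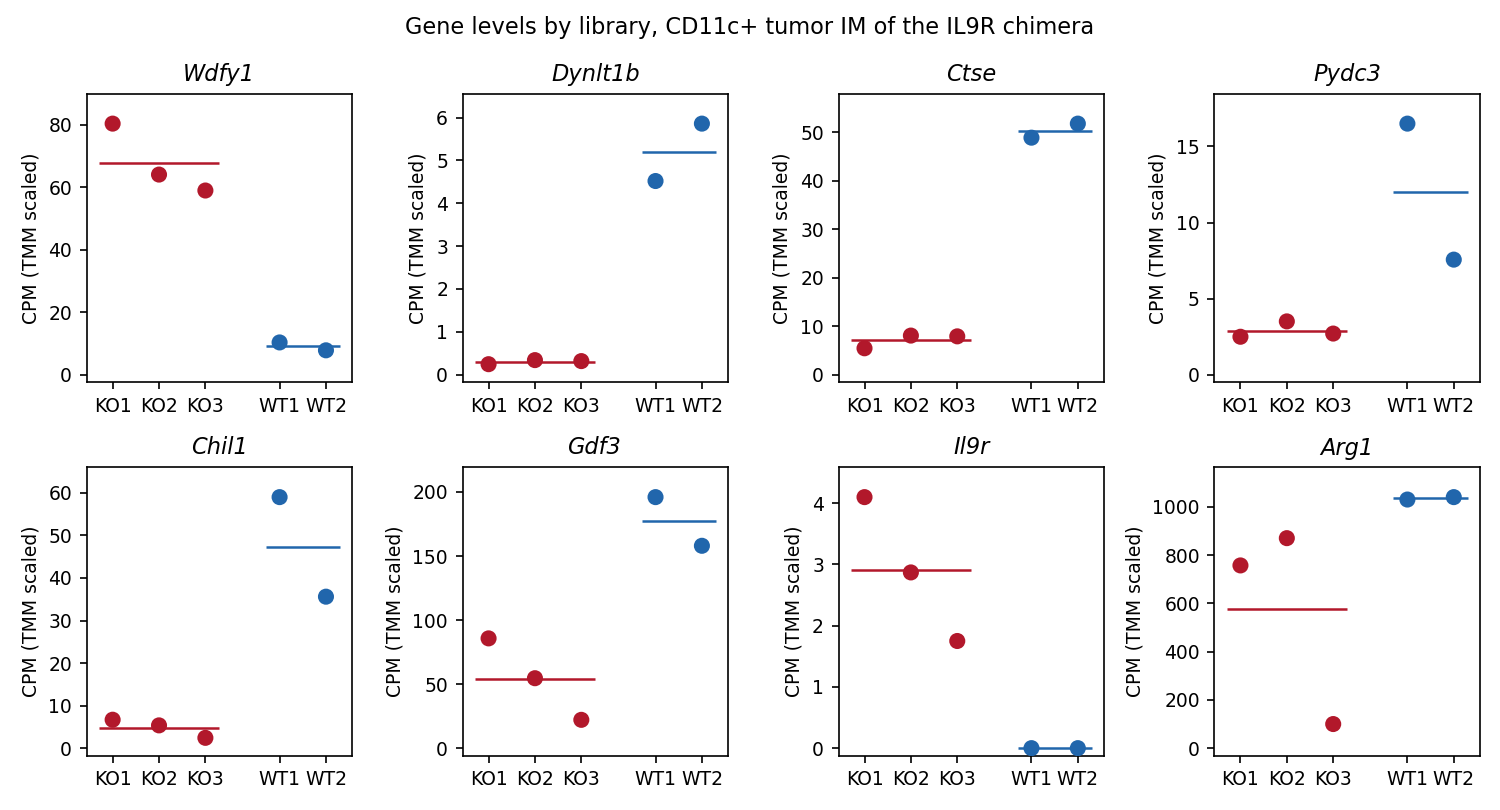
Level of 8 genes in CPM (TMM scaled, linear axes from 0) in each library, KO libraries in red on the left and WT libraries in blue on the right of each panel; horizontal lines are group means. The KO libraries sit above both WT libraries for Wdfy1 (58.9 to 80.3 against 7.78 and 10.3 CPM) and Il9r, and below them for the other 6 genes, with KO3 apart from KO1 and KO2 for Arg1 (99.8 CPM).

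Il9r itself went against the label. Il9r (chromosome 11, 32187541 to 32200279) had 168, 110 and 83 reads in KO1, KO2 and KO3, and 0 reads in WT1 and WT2. These were 4.10, 2.87 and 1.75 CPM in KO. Reads appeared in every library labelled KO and in neither labelled WT. Taking 3 counts as the floor of each WT library, the KO mean was at least 38.4-fold higher, and at least 46.1-fold without KO3. The exact two-sided permutation p was 0.2, the smallest that 10 assignments of 3 and 2 libraries allow. Il9r was not called (edgeR adjusted p = 1). The gene table does not say which exons the reads came from, so reads at an altered allele and exchanged labels cannot be told apart here. Every direction in this text follows the labels KO and WT as deposited.

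Outside these libraries, Il9r had 562, 248 and 179 reads in the CD11c- libraries labelled KO and 0 in both labelled WT. In the ARG1 chimeras 1 CD11c+ CKO library had 61 Il9r reads, and the other CD11c+ CKO library and the 3 CD11c+ WT libraries had 0.

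Itgax, the gene of CD11c by which the cells were sorted, had 394, 484 and 540 CPM in KO and 428 and 428 CPM in WT. The groups overlapped (log2 fold change 0.14, SE 0.38, edgeR adjusted p = 1, exact permutation p = 0.6). In CD11c- IM it averaged 28.7 CPM in KO and 24.7 CPM in WT, so the sort and the subset label matched in both genotypes. Ptprc, the congenic marker gene, had 364, 369 and 587 CPM in KO and 387 and 310 CPM in WT, with overlap (log2 fold change 0.34, SE 0.37, adjusted p = 1, exact permutation p = 0.6).

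The 5 libraries had 36083478 to 43484419 counts and 12348 to 12942 genes detected. Over 9171 genes with at least 5 CPM, the closest libraries were KO2 and WT2, with a median absolute difference of 0.156 in log2 CPM. KO1 was nearest to WT1 (0.216) and lay at 0.250 from KO2, while WT1 and WT2 lay 0.259 apart. KO1 and WT1, and KO2 and WT2, which share a replicate number, were thus closer to each other than those of one genotype. KO3 lay 0.357 to 0.449 from each other library. Of all genes tested, 1068 (7.95%) had every KO library above both WT libraries and 880 (6.55%) had every KO library below them.

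**Figure D2:**
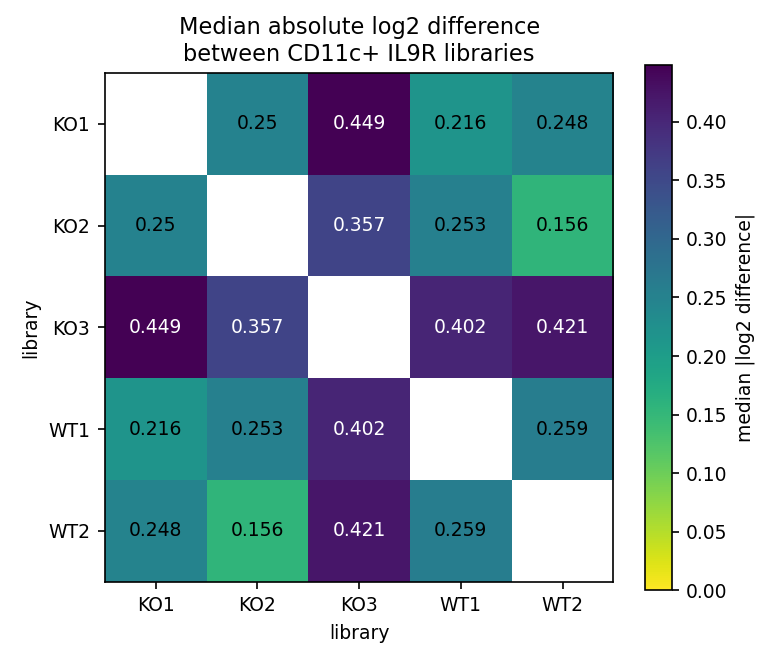
Median absolute difference in log2 CPM between each pair of CD11c+ IL9R libraries over 9171 genes, with KO libraries before WT libraries on both axes; darker cells are larger differences. KO3 differs most from the other 4 libraries (0.357 to 0.449), and KO2 and WT2 are the closest pair (0.156).

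Markers of other cells set KO3 apart. B16 melanoma genes without Gpnmb, which macrophages also express, made up 0.00975%, 0.0153% and 0.130% of the counts of KO1, KO2 and KO3, against 0.00854% and 0.0123% of WT1 and WT2. Pmel, a melanosome gene, had 14.7, 23.7 and 204 CPM in KO and 5.58 and 13.4 CPM in WT. Cd3d, Cd3e and Cd3g, genes of the T cell receptor complex, together had 0, 6 and 455 reads in KO and 33 and 15 reads in WT. Cd79a, a B cell receptor gene, had 0.244, 0.678 and 18.1 CPM in KO and 0 and 0.195 CPM in WT. KO3 was the highest of the 5 libraries in each of these measures. Cd79b, another B cell receptor gene, was lowest in KO3, with 16.8, 18.7 and 14.1 CPM in KO and 14.8 and 20.6 CPM in WT.

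Over the 16 T and NK cell markers tested, 13 had a positive log2 fold change with KO3 and 7 without it, and their medians were 2.21 and -0.07. Their summed level was 117 to 249 CPM in KO and 117 to 162 CPM in WT, most of it from Il7r and Cd2. Of these 16 markers, 7, 7 and 0 were at 0 in KO1, KO2 and KO3, and 9 and 5 in WT1 and WT2. Cd8b1 was at 0 in every library but KO3 (3.35 CPM), and Cd3e was at 0 in KO1, WT1 and WT2. The 8 B and plasma cell markers summed to 20.4, 20.1 and 67.8 CPM in KO and 15.0 and 20.8 CPM in WT. Cd79b made up most of this sum in every library but KO3. Of these 8 markers, 3, 3 and 0 were at 0 in KO and 6 and 5 in WT. Ms4a1, the CD20 gene of B cells, had reads in every KO library (2.10, 0.339 and 11.8 CPM) and none in WT, yet was not called (edgeR adjusted p = 0.282, and 1 without KO3).

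Of the 15 melanoma markers tested, 14 had a positive log2 fold change with KO3 (median 2.40) and 9 without it (median 0.19), and none was called. Summed with Gpnmb they made 4090, 5210 and 4500 CPM in KO and 3580 and 4550 CPM in WT, and 1, 2 and 0 of them were at 0 in KO and 2 and 3 in WT. With at least 10 reads in the library and none in the other 4, KO1 had 11 genes, KO2 had 18 and KO3 had 101. The part of these cells in the differences with KO3 was not tested. For the 4 called genes KO3 lay within or near the range of KO1 and KO2.

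The defining markers of interstitial macrophages were present in all 5 libraries. C1qa, a complement gene of these cells, had 2210, 1690 and 752 CPM in KO and 1950 and 1850 CPM in WT. Csf1r, the receptor of the macrophage growth factor M-CSF, had 1360, 1400 and 1400 CPM in KO and 1570 and 1350 CPM in WT. None of the 12 markers was at 0, none was called, and 10 had a negative log2 fold change (median -0.23), or 7 of 12 without KO3 (median -0.01). Of the list, KO3 was the lowest library for C1qa, C1qb, C1qc, Fcgr1 and Apoe. In bulk libraries fewer cells of a type and less RNA per cell cannot be told apart.

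Alveolar macrophage markers were all in the table. All 21, which include Itgax, had a positive log2 fold change with KO3 (median 0.85) and 20 without it (median 0.22), and none was called. Plet1 had 31.4, 153 and 411 CPM in KO and 15.9 and 142 CPM in WT. Car4, a carbonic anhydrase gene, had 13.8, 77.7 and 357 CPM in KO and 7.62 and 59.4 CPM in WT. Their summed level was 3140, 9630 and 13300 CPM in KO and 2140 and 8330 CPM in WT, most of it from Chil3 in KO2, KO3 and WT2. The libraries numbered 1 were low in both genotypes, those numbered 2 were alike, and KO3 was highest. Siglecf, a defining marker, had 3.83, 9.26 and 26.1 CPM in KO and 4.56 and 8.28 CPM in WT, and Fabp1 was the only marker at 0, in WT1. The part of alveolar macrophages in the differences was not tested.

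The other marker lists held no call either. The median was 2.09 for 12 endothelial markers (1.06 without KO3), 1.29 for 13 lung epithelial markers (0.37), 0.51 for 10 fibroblast markers (0.02) and -0.70 for 10 neutrophil markers (-0.27). It was -0.17 for 11 monocyte markers (-0.15 without KO3), -0.16 for 16 dendritic cell markers (0.03), -0.56 for 5 red cell and platelet markers (-0.56) and 0.27 for 3 mast cell, basophil and eosinophil markers (0.62). The summed level of endothelial markers was 106, 102 and 107 CPM in KO and 92.3 and 77.2 CPM in WT, most of it from Vwf, Eng and Pecam1. KO3 was nevertheless the highest library for Tek, Tie1, Cldn5, Egfl7, Ramp2 and Plvap, and the median of the list was 3.02 for KO3 minus the WT mean, 1.00 for KO1 minus WT1 and 0.38 for KO2 minus WT2. Among the epithelial markers Sftpc, a surfactant protein gene of alveolar type II cells singled out after its values were seen, had 4.85, 18.4 and 14.8 CPM in KO and 0.899 and 2.45 CPM in WT. The groups did not overlap (log2 fold change 2.92, SE 0.60, edgeR adjusted p = 0.182; 2.80 without KO3, adjusted p = 0.631). Sftpc was called without KO1 (3.31, edgeR adjusted p = 0.0248) and by DESeq2 (2.91, adjusted p = 0.000148). The summed level of the epithelial markers was 65.3, 99.6 and 140 CPM in KO and 55.9 and 101 CPM in WT, and their part in the results was not tested.

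**Figure D3:**
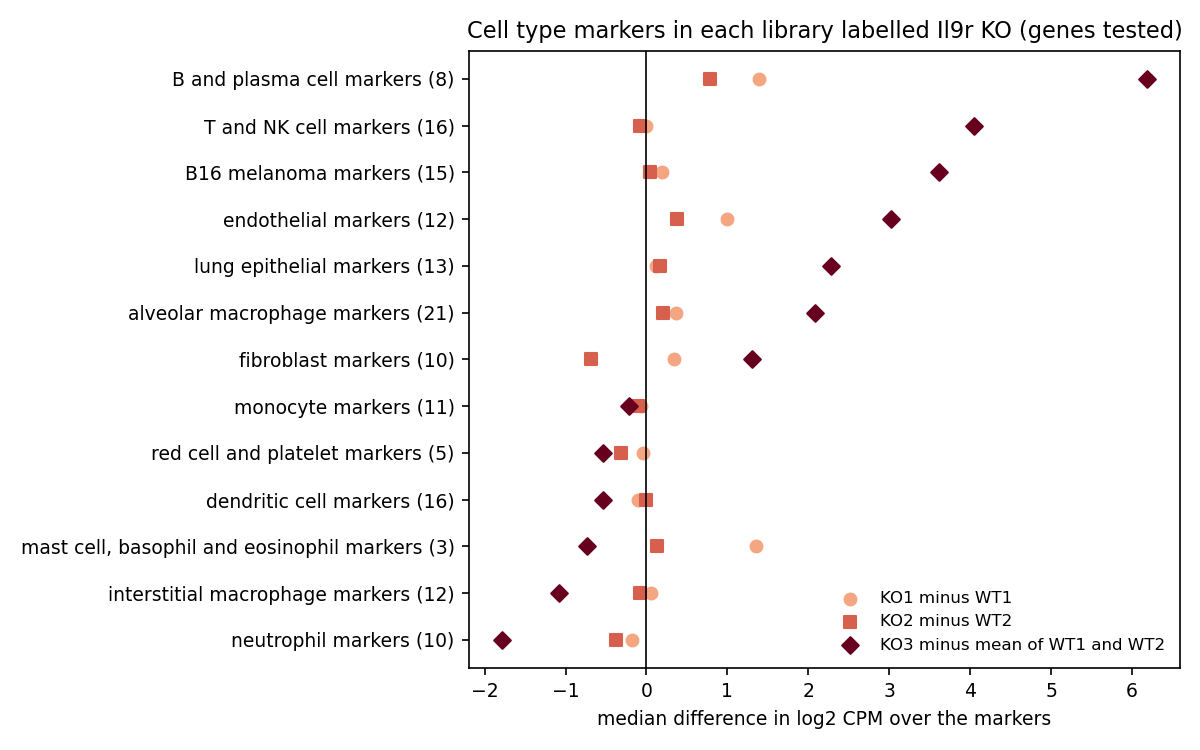
Median difference in log2 CPM over the tested markers of 13 cell types, for KO1 minus WT1 (circles), KO2 minus WT2 (squares) and KO3 minus the mean of WT1 and WT2 (diamonds); the number of markers tested is in parentheses. KO3 lies apart for B and plasma cell (6.19), T and NK cell (4.05), melanoma (3.61), endothelial (3.02), lung epithelial (2.28) and alveolar macrophage markers (2.08), and below 0 for interstitial macrophage markers (-1.08).

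The other chain and the signal path of the receptor showed no called difference. Il2rg, the common gamma chain, had 405, 304 and 307 CPM in KO and 410 and 270 CPM in WT. Stat5a, a signal transducer of the receptor, had 26.5, 25.8 and 27.2 CPM in KO and 21.0 and 19.7 CPM in WT, with no overlap (log2 fold change 0.38, SE 0.25, edgeR adjusted p = 1). Cish, a feedback inhibitor induced by STAT5, had 58.8, 40.1 and 52.4 CPM in KO and 58.5 and 64.5 CPM in WT, and the groups overlapped. Socs3, an inhibitor induced by STAT3, had 448, 380 and 267 CPM in KO and 459 and 362 CPM in WT (log2 fold change -0.17, and 0.01 without KO3). Of the 14 genes of this list, which includes Il9r, 8 had a positive log2 fold change with KO3 and 6 without it (medians 0.09 and -0.04), beside 51.3% and 51.5% of all genes tested (median 0.01 both times).

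Arg1, the arginase that splits arginine into ornithine and urea, had 757, 870 and 99.8 CPM in KO and 1030 and 1040 CPM in WT. Every KO library was below both WT libraries, KO3 by far the most. The log2 fold change was -0.85 (SE 0.57, edgeR adjusted p = 1) and -0.35 without KO3 (SE 0.41, adjusted p = 1). The exact permutation p was 0.2, the smallest possible. None of the 21 measured genes of arginine and polyamine metabolism was called. Of these, 15 had a negative log2 fold change with KO3 (median -0.10) and 11 without it (median 0.00). Slc7a7, an arginine exporter, had 68.3, 63.1 and 62.3 CPM in KO and 92.1 and 73.3 CPM in WT (log2 fold change -0.36, SE 0.18, adjusted p = 1). Slc7a2, an arginine importer, had 67.6, 129 and 263 CPM in KO and 42.4 and 112 CPM in WT, with overlap.

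Among 20 genes of alternative activation, the macrophage state linked to IL-4 and tissue repair, none was called and 15 had a negative log2 fold change (median -0.33), or 14 without KO3 (median -0.13). The lowest was Chil1, which encodes a chitinase-like secreted protein (chromosome 1, 134182176 to 134190181). It had 6.68, 5.35 and 2.42 CPM in KO and 59.0 and 35.6 CPM in WT. The groups were far apart, and KO3 was the lowest. For Chil1 the log2 fold change was -3.30 (SE 0.62, edgeR adjusted p = 0.107), or -2.97 without KO3 (SE 0.70, adjusted p = 0.977). With the replicate number as a block it was called (-2.94, edgeR adjusted p = 0.048).

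Gdf3, which encodes a TGF-beta family ligand (chromosome 6, 122605403 to 122610087), had 85.7, 54.6 and 22.1 CPM in KO and 196 and 158 CPM in WT. All KO libraries were below both WT libraries, and KO3 was again the lowest. The log2 fold change was -1.71 (SE 0.34, edgeR adjusted p = 0.175) and -1.34 without KO3 (SE 0.26, adjusted p = 0.189). Without KO1 it was called (-2.21, adjusted p = 0.0114). Chil3, another chitinase-like gene and the most abundant of the list, had 1570, 6880 and 9190 CPM in KO and 682 and 5940 CPM in WT. Its levels overlapped and followed those of the alveolar markers, a list that also holds Chil3. Chil3 was most of the summed level of that list in KO2, KO3 and WT2, so the sum and Chil3 are not independent.

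In the PYHIN family, sensors of DNA and interferon-inducible regulators, 9 genes were measured, among them Pydc3 and Pyhin1, which are older names of Ifi208 and Ifi209. With KO3, 8 had a negative log2 fold change (median -0.55) and 1, Pydc3, was called. Without it all 9 were negative (median -0.30) and none was called. Pyhin1 had 62.0, 63.5 and 47.5 CPM in KO and 98.5 and 70.0 CPM in WT (log2 fold change -0.55, SE 0.21, edgeR adjusted p = 1). Ifi204 had 121, 113 and 61.3 CPM in KO and 138 and 151 CPM in WT (-0.55, SE 0.25, adjusted p = 1). In both the KO libraries stayed below the WT libraries. The family also differed between the WT libraries, by a median of 0.63 for WT1 minus WT2. Aim2, a sensor of cytosolic DNA, had 13.9, 17.0 and 21.1 CPM in KO and 13.7 and 21.0 CPM in WT, with overlap.

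None of the 34 measured genes of the type I interferon response was called. Of these 30 had a negative log2 fold change with KO3 (median -0.43) and 29 without it (median -0.16). Irf7, a transcription factor that amplifies interferon production, had 230, 229 and 77.0 CPM in KO and 294 and 274 CPM in WT. Rsad2, the antiviral enzyme viperin, had 95.4, 84.5 and 29.7 CPM in KO and 140 and 96.3 CPM in WT. KO3 held the lowest value of both genes. Between the WT libraries the list differed too, by a median of 0.46 for WT1 minus WT2. Oas2, which makes an activator of the antiviral nuclease RNase L, was among the 4 genes with a positive value. It had 5.85, 9.05 and 10.4 CPM in KO and 4.61 and 1.81 CPM in WT (log2 fold change 1.39, SE 0.37, edgeR adjusted p = 1; 1.21 without KO3).

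Glycolysis and hypoxia genes held no call among 27 tested. With KO3, 24 had a negative log2 fold change (median -0.21), and without it 22 (median -0.10). Of all genes tested, 48.2% were negative with KO3 and 47.4% without it. KO1 minus WT1 was negative for 23 genes of the list (median -0.20), and KO2 minus WT2 for 14 (median -0.02). Ldha, which makes lactate, had 1700, 1910 and 1310 CPM in KO and 2060 and 2180 CPM in WT, all KO libraries below WT (log2 fold change -0.37, SE 0.25, edgeR adjusted p = 1). Ndrg1, a hypoxia-induced gene, had 109, 109 and 40.6 CPM in KO and 140 and 125 CPM in WT (-0.62, SE 0.33, adjusted p = 1; -0.28 without KO3). Gapdh had 2990, 2650 and 1640 CPM in KO and 2970 and 2890 CPM in WT, and overlapped.

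Cholesterol and fatty acid synthesis genes leaned the other way. None of 27 was called. With KO3, 25 had a positive log2 fold change (median 0.52), and without it 22 (median 0.20). KO1 minus WT1 was positive for 16 of them and KO2 minus WT2 for 23. The WT libraries differed as well, by a median of -0.22 for WT1 minus WT2. Sc5d, a late enzyme of cholesterol synthesis, had 30.2, 32.3 and 49.9 CPM in KO and 25.0 and 18.7 CPM in WT, with no overlap (log2 fold change 0.78, SE 0.25, edgeR adjusted p = 1; 0.52 without KO3). Scd2, a fatty acid desaturase gene, had 70.9, 60.9 and 129 CPM in KO and 45.6 and 61.3 CPM in WT. Acly, which makes the acetyl-CoA used in both pathways, had 156, 191 and 388 CPM in KO and 188 and 170 CPM in WT (log2 fold change 0.45, and -0.05 without KO3). KO3 was the highest library for both, and the groups overlapped.

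**Figure D4:**
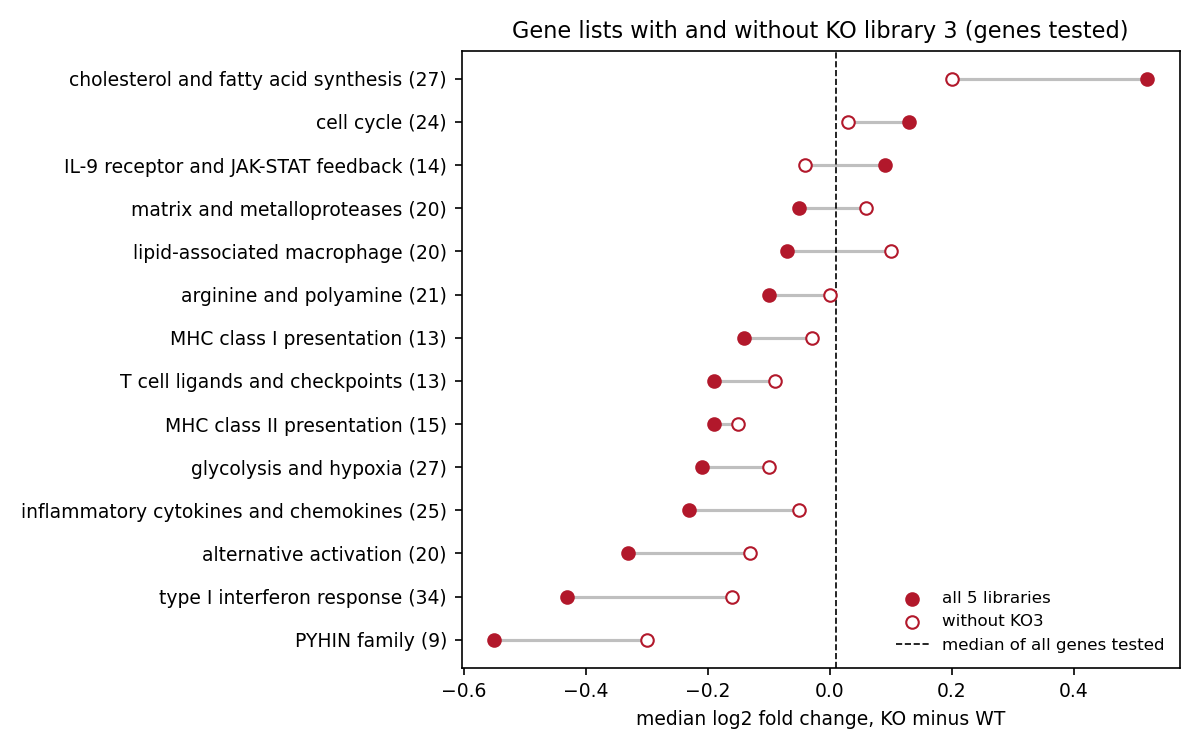
Median log2 fold change (KO minus WT) of the genes tested in 14 lists, with all 5 libraries (filled) and without KO3 (open); the dashed line is the median of all genes tested (0.01). Of these lists, 12 lie nearer to 0 without KO3, among them cholesterol and fatty acid synthesis (0.52 and 0.20) and type I interferon response (-0.43 and -0.16).

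Antigen presentation genes held no call either. Cd74, the invariant chain of MHC class II, had 17300, 13000 and 13400 CPM in KO and 18500 and 14900 CPM in WT, with overlap. Of 15 class II genes 12 had a negative log2 fold change (median -0.19), and 11 without KO3 (median -0.15). Of 13 class I genes 10 did (median -0.14), and 9 without KO3 (median -0.03). B2m, the light chain of class I molecules, had 5470, 4570 and 2650 CPM in KO and 5050 and 4880 CPM in WT (log2 fold change -0.23, and 0.02 without KO3). Among 13 ligands and checkpoints for T cells, none was called. Cd276, a B7 family ligand, had 19.4, 15.5 and 16.0 CPM in KO and 25.7 and 27.5 CPM in WT, with no overlap. Cd274, which encodes PD-L1, had 98.4, 132 and 167 CPM in KO and 134 and 114 CPM in WT, with overlap.

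Of 25 inflammatory cytokine and chemokine genes, 21 had a negative log2 fold change with KO3 (median -0.23) and 17 without it (median -0.05). Il1b, the gene of the cytokine IL-1 beta, had 2210, 1640 and 1240 CPM in KO and 2450 and 1830 CPM in WT. Ccl2, a chemokine that attracts monocytes, had 702, 463 and 222 CPM in KO and 735 and 520 CPM in WT. The medians of 20 lipid-associated macrophage genes (-0.07 and 0.10 without KO3), 20 matrix genes (-0.05 and 0.06) and 24 cell cycle genes (0.13 and 0.03) were small, and the first and second changed sign without KO3. No gene of these 4 lists was called. Sparc, a matrix gene, had 7.51, 4.38 and 46.8 CPM in KO and 3.96 and 2.68 CPM in WT (log2 fold change 2.56, SE 0.79, edgeR adjusted p = 1; 0.84 without KO3).

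Beyond the calls, the genes with the largest fold changes (unadjusted p under 0.05, no overlap, higher group averaging 5 CPM or more) were on the higher side mostly set by KO3. Cpe, a carboxypeptidase gene, had 2.02, 4.70 and 36.8 CPM in KO and 1.06 and 1.17 CPM in WT. Tyr, the tyrosinase of melanocytes, had 2.44, 4.38 and 36.2 CPM in KO and 1.82 and 1.31 CPM in WT. Rab4a, a GTPase of endosome recycling, was the exception, with 6.68, 4.67 and 4.43 CPM in KO and 0 and 0.474 CPM in WT. Its log2 fold change was 4.48 (SE 1.38, edgeR adjusted p = 1) and 4.59 without KO3. On the lower side Vcan, a proteoglycan gene of monocytes, had 6.70, 6.47 and 1.71 CPM in KO and 17.9 and 16.2 CPM in WT (-1.79, SE 0.58, adjusted p = 1; -1.37 without KO3). Mgarp had 4.29, 2.35 and 0.822 CPM in KO and 9.71 and 5.22 CPM in WT, and Olfml2b had 2.71, 1.41 and 0.506 CPM in KO and 3.40 and 6.69 CPM in WT.

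No gene passed the test of the difference between the subsets, CD11c+ minus CD11c- (0 of 13434 genes, 0%, edgeR quasi-likelihood test), with 740 at an unadjusted p under 0.05 and 7 called by DESeq2. Without the second CD11c- WT library 12 genes were called. In CD11c- IM, which have their own WT libraries, 3 genes were called. They were Wdfy1, with a log2 fold change of 2.81 (SE 0.33, edgeR adjusted p = 0.000408), Dynlt1b, with -5.31 (SE 0.40 and adjusted p = 4.41e-07), and Ctse, with -2.89 (SE 0.38 and adjusted p = 0.00165). Pydc3 had -0.32 (SE 0.34, adjusted p = 0.909) in CD11c- IM, where it averaged 24.6 CPM in KO and 30.8 CPM in WT. The difference between the subsets was -1.73 for Pydc3 (SE 0.49, adjusted p = 0.861). Gdf3 had -1.50 (SE 0.34, adjusted p = 0.409) and Chil1 -2.58 (SE 0.61, adjusted p = 0.459) in CD11c- IM.

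Set against the Arg1 CKO minus WT difference in CD11c+ IM of the other chimeras, 2 of 13434 genes (0.0149%) differed. The Il9r difference exceeded the Arg1 difference by 3.47 for Wdfy1 (SE 0.45, edgeR adjusted p = 0.00343), where Arg1 CKO minus WT was -0.57 (SE 0.31). For Dynlt1b the difference between the comparisons was -3.62 (SE 0.50, adjusted p = 0.00439), where Arg1 CKO minus WT was -0.48 (SE 0.35). Without WT2 no gene differed between the comparisons, without the first Arg1 CKO library 1 gene did and without the second 4 genes did. Ctse was lower in both chimeras: Arg1 CKO minus WT was -3.12 (SE 0.44, adjusted p = 0.00580), and the difference between the chimeras was 0.30 (SE 0.54, adjusted p = 1). Chil1 had -3.49 in Arg1 CKO minus WT (SE 0.72, adjusted p = 0.170). Each chimera kind has its own WT libraries. Of the 4 called genes, Wdfy1, Ctse and Pydc3 lie on chromosome 1, as do Chil1 and Ptprc (138062861 to 138175708). So do 784 of the 13434 genes tested, of which 31 (3.95%) had an unadjusted p under 0.05, beside 2.83% of all genes tested. The share was as high on chromosome 12 (4.01%) and close to it on chromosomes 16 (3.72%) and 6 (3.61%). Within 2 Mb, 1 of 9 neighbours of Wdfy1, 1 of 34 of Ctse and 0 of 12 of Ptprc had an unadjusted p under 0.05. For Pydc3 it was 4 of 34, all PYHIN genes. The 2 Mb window around Ptprc does not reach Ctse or Chil1. A part of flanking donor DNA was not tested, and these windows and shares could not test it.

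**Figure D5:**
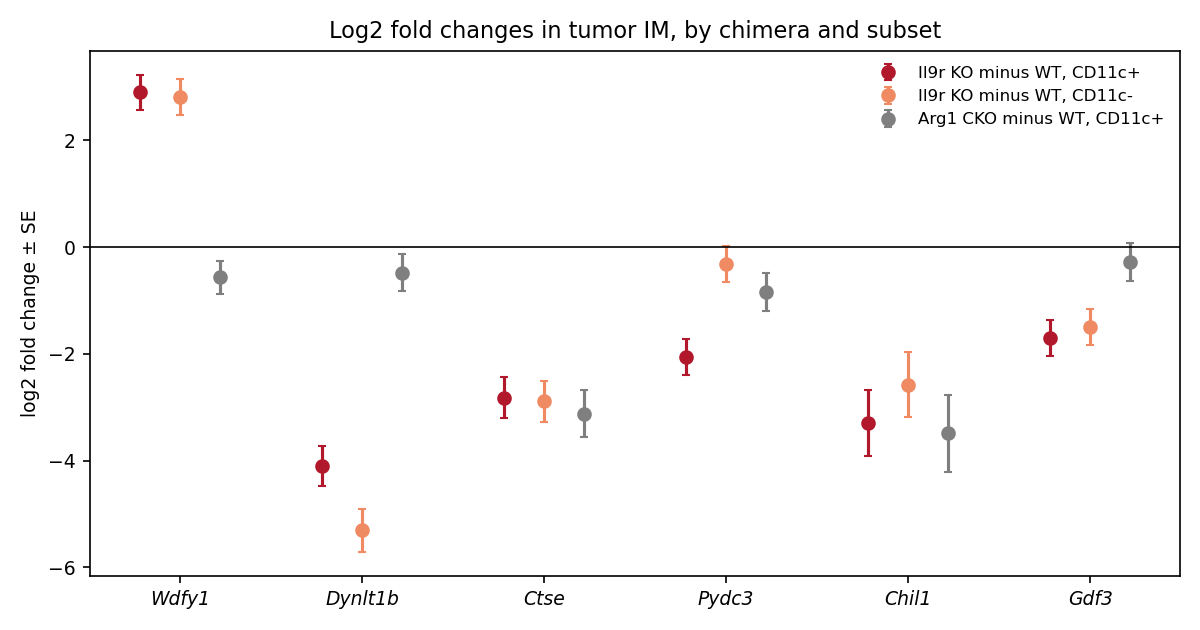
Log2 fold change with its SE (bars) for 6 genes in Il9r KO minus WT CD11c+ IM (red), Il9r KO minus WT CD11c- IM (orange) and Arg1 CKO minus WT CD11c+ IM (grey). Wdfy1 and Dynlt1b are near 0 in the Arg1 comparison (-0.57 and -0.48), Ctse lies between -3.12 and -2.82 in all 3, and Pydc3 is lowest in CD11c+ IM labelled Il9r KO (-2.06).

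In naive lung macrophages, with 1 library each and no test, Wdfy1 had 48.2 CPM in KO and 12.9 CPM in WT (log2 ratio 1.90), and Ctse had 11.7 CPM in KO and 66.3 CPM in WT (-2.50). Dynlt1b had 0.825 CPM in KO and 2.44 CPM in WT (-1.51). These 3 genes differed in the same direction as in tumor CD11c+ IM. Pydc3 had 7.70 CPM in KO and 1.08 CPM in WT (2.77), the opposite direction.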

How the data were processed

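The authors deposited raw read counts per gene for 25 libraries, and the 13482 gene symbols of the table were used as given. Per the submitters' processing notes, FastQC 0.11.5, STAR 2.7.10a, featureCounts of Subread 2.0.3 and mm10 were used. The annotation, the strand setting and the treatment of reads that match several genes are not given in the sources used here. Per the labels' protocols, RNA was extracted with a QIAGEN micro kit and libraries were made with SMART-seq v4 and Nextera XT, which names no molecular identifiers, so floors reflect counting error alone. The groups follow the sample titles, and all libraries share 1 batch label.

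The test was edgeR 4.0.16 in R 4.3.3 (TMM, filterByExpr, robust quasi-likelihood fit, two-sided, Benjamini-Hochberg) over the 21 tumor libraries with a term per group, so that 8 groups of 2 or 3 libraries share 1 estimate of the spread (13 residual degrees of freedom, 48 genes removed, biological coefficient of variation 49.2%). The SE of a log2 fold change is its absolute value divided by the square root of the F statistic of the edgeR test. It is therefore not a measure separate from the p-value. Log2 CPM used a prior count of 2. A gene without reads has a floor of 3 counts per library. The steps were tested on simulated data. Alternatives used DESeq2 1.42.0 and limma 3.58.1 (voom). Library totals of the 25 libraries ran from 32308968 to 56904167 counts. Positions came from GENCODE vM21 (GRCm38), or RefSeq GRCm38.p6 for older symbols.

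No label ties a library number to an animal. Deviations from the group means of same-numbered KO and WT libraries correlated at 0.25 and 0.37 in CD11c+ and at 0.37 and 0.47 in CD11c- IM over 8019 genes. The deviations of 2 WT libraries mirror each other, so the 2 values of a subset are not independent. The numbers were taken to pair libraries in the fit with a replicate block alone, and the main test ignores them. KO3 has no partner, so a fit with the number as a block rests on pairs 1 and 2.

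The named genes were Il9r, Itgax, Ptprc and Arg1; all called genes; the 8 highest and 8 lowest fold changes among genes with unadjusted p under 0.05, a mean of 5 CPM or more in the higher group and no overlap; and in each biology list the 2 genes with the smallest p and the most abundant one. Not all of these genes are described above, and further list members were named after their values were seen. The libraries, genes and lists were chosen with earlier results of these data known.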

Additional observations from a re-analysis of the deposited data

Results flagged for a closer look

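Wdfy1 and Dynlt1b differed between the chimera kinds in the fit of all tumor libraries. Neither was called with voom or when the compared groups were fitted alone. For Wdfy1 the Il9r KO minus WT log2 difference in CD11c+ IM exceeded the Arg1 CKO minus WT difference by 3.47 (edgeR adjusted p = 0.00343), with all 3 KO libraries above both WT libraries. For Dynlt1b the difference between the comparisons was -3.62 (edgeR adjusted p = 0.00439), with all 3 KO libraries below both WT libraries.

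Il9r reads also appeared outside the tumor comparison. The naive library labelled Il9r KO held 163 Il9r reads, and the naive library labelled WT held 0, against the label in both.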

How the results depend on the processing

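The count of 4 called genes became 34 with DESeq2, of which 21 had no read in WT and 10 had reads in KO3 alone of the 5 libraries. It became 2 with voom, Wdfy1 and Ctse, where Dynlt1b had a voom adjusted p of 0.08. The count was 0 when the 2 groups were fitted alone, with 307 genes at an unadjusted p under 0.05. In that fit the edgeR adjusted p was 0.0551 for Wdfy1 and Ctse and 0.999 for Dynlt1b and Pydc3. Leaving out 1 library gave 3 to 6 calls. With the replicate block there were 4 calls, with Chil1 in (adjusted p = 0.048) and Pydc3 out (adjusted p = 0.749), and no other call of a named gene changed. Over 14 alternatives Wdfy1 and Ctse were called in 13, Dynlt1b in 12 and Pydc3 in 6. The count of 0 for the difference between the subsets became 7 with DESeq2 and ranged from 0 to 12 with 1 library left out, the 12 without CD11c- WT2. The count of 2 for the difference from Arg1 became 38 with DESeq2, 0 with voom and 0 with library weights. With the groups alone it became 1, which was Lyz1 (-3.36, edgeR adjusted p = 0.0247), and neither Wdfy1 nor Dynlt1b was called. Some genes that were not called changed sign: with the replicate block Socs3 had 0.02, B2m 0.01 and Acly -0.05, and with 1 library left out Socs3 ranged from -0.34 to 0.01, Chil3 from -0.02 to 3.11, Nlrc5 from -0.02 to 0.97, B2m from -0.46 to 0.02, Acly from -0.05 to 0.69 and Ctsd from -0.09 to 0.29. The cause was not tested. With library totals in place of TMM no list median changed sign.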

Other observations

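Some genes were read in 1 genotype only. Of the genes with no read in either WT library, 30 had at least 10 reads in every KO library, among them Il9r, Ms4a1, Cldn5, an endothelial junction gene, and Susd2. Of the genes with no read in any KO library, 8 had at least 10 reads in both WT libraries, among them Krt8, an epithelial keratin gene, Gucy2c and Egf. Of the 13482 genes of the table, 488 had no read in WT and 128 had no read in KO. These counts rest on 2 WT and 3 KO libraries, so they cannot be set against each other directly. Of the 488, 101 had no read in KO1 or KO2 and at least 10 in KO3. Whether genotype, the number of libraries or the makeup of KO3 plays a part was not tested.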
